A study of Sus scrofa with 15 samples.

Results

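The genes described here are those of the MHC class II molecules of the pig, called swine leukocyte antigens (SLA), with the proteins that assemble them and switch them on: *SLA-DRA*, *SLA-DRB1*, *SLA-DQA1*, *SLA-DQB1*, *SLA-DOB*, *SLA-DMA*, *SLA-DMB*, *CD74*, *CIITA* and *RFX5*. They were chosen by gene symbol, and all 10 were found among the 29886 genes of the count table. All 10 also passed the filter on low counts that left 10939 genes for testing. Messenger RNA was read from its 3′ end in 3 populations of natural killer (NK) cells of the same 5 pigs, 6 months old, which gave 15 libraries. The populations were circulating CD8α high NK cells of blood (cNK cells), CD8α high NK cells of liver, and CD8α dim NK cells of liver (liver-resident or lrNK cells). The labels and the study's methods name no genetic change or treatment of these pigs, and every population was sorted as negative for CD3, a T cell protein, and CD172a, a myeloid protein, so that no B cell protein was part of the gate. The liver cells came from the fluid flushed through the portal vein, and a library pools the sorted cells of 1 pig and 1 population.

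MHC class II molecules show peptides from engulfed proteins to CD4 T cells. An alpha and a beta chain pair in the endoplasmic reticulum around the invariant chain (CD74), proteases of the endosome trim CD74 away, and the DM molecule then exchanges the remaining fragment for a peptide, a step that the DO molecule restrains. The co-activator CIITA is recruited by a complex of RFX, CREB and NF-Y proteins on the promoters of these genes and is regarded as their main switch. B cells, dendritic cells and macrophages carry class II all the time, and DO is best known from B cells. In pigs, unlike mice, activated T cells also carry class II molecules.

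Library totals ran from 2003499 to 5680221 counts. Levels are CPM, counts scaled to each library's total over the 10939 genes tested, with edgeR's TMM factors. Since a read stands for the end of a transcript, these levels do not grow with transcript length. All 15 libraries entered a single quasi-likelihood fit of edgeR, p-values were adjusted after Benjamini and Hochberg over the 10939 genes, and a gene was called where the adjusted p was under 0.05. The 10 listed NK cell genes summed to between 3319 and 6024 CPM in every library. A list of 18 B cell markers, of which 17 were in the table, summed to 67.9 to 221 CPM in blood, 42.4 to 94.6 CPM in liver CD8α high cells and 452 to 1242 CPM in lrNK cells, although the B cell receptor gene *CD79A* was counted 0 times in all 15 libraries. The plasma cell list summed to 13.3 to 58.9 CPM in blood, 4.06 to 23.7 CPM in liver CD8α high cells and 95.9 to 452 CPM in lrNK cells. Most of it was *JCHAIN* (means of 28.2, 10.9 and 259 CPM). The list of 21 myeloid and dendritic markers summed to 8.77 to 41.0, 8.29 to 29.4 and 24.8 to 55.0 CPM in the same order, with *CSF1R*, *CD163*, *CLEC9A*, *C1QA*, *C1QB*, *MARCO*, *S100A8* and *S100A9* at 0 in all 15 libraries. The dendritic marker *XCR1* was counted 9 to 40 times per lrNK library and at most once elsewhere. The T cell list summed to 637 to 1203, 714 to 1076 and 110 to 593 CPM, nearly all of it *CD3G* (means of 865, 825 and 289 CPM), with *CD4*, *CD5* and *CD28* at 0 throughout, and the endothelial and hepatocyte lists did not exceed 18.5 and 8.14 CPM in any library. In bulk samples, a few cells with much class II RNA and many cells with little cannot be told apart.

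Most class II genes were higher in lrNK cells than in either CD8α high population, while blood and liver CD8α high cells did not differ at the threshold for any of them. Of the 10 genes, 7 rose in lrNK cells against blood and 0 fell, where 8.62% of all genes tested rose and 9.6% fell. Against liver CD8α high cells 6 rose and 0 fell, where 6.96% of all genes rose and 7.68% fell. The median log2 fold change of the 10 genes was 1.33 against blood and 1.53 against liver CD8α high cells, with 0.0060 and 0.016 over all genes tested, and all 10 lay above 0 in both comparisons. These comparisons share the lrNK libraries, so they are not independent of each other. Against blood the number that rose was 4 without pig 2 and 3 without pig 4.

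**Figure D1:**
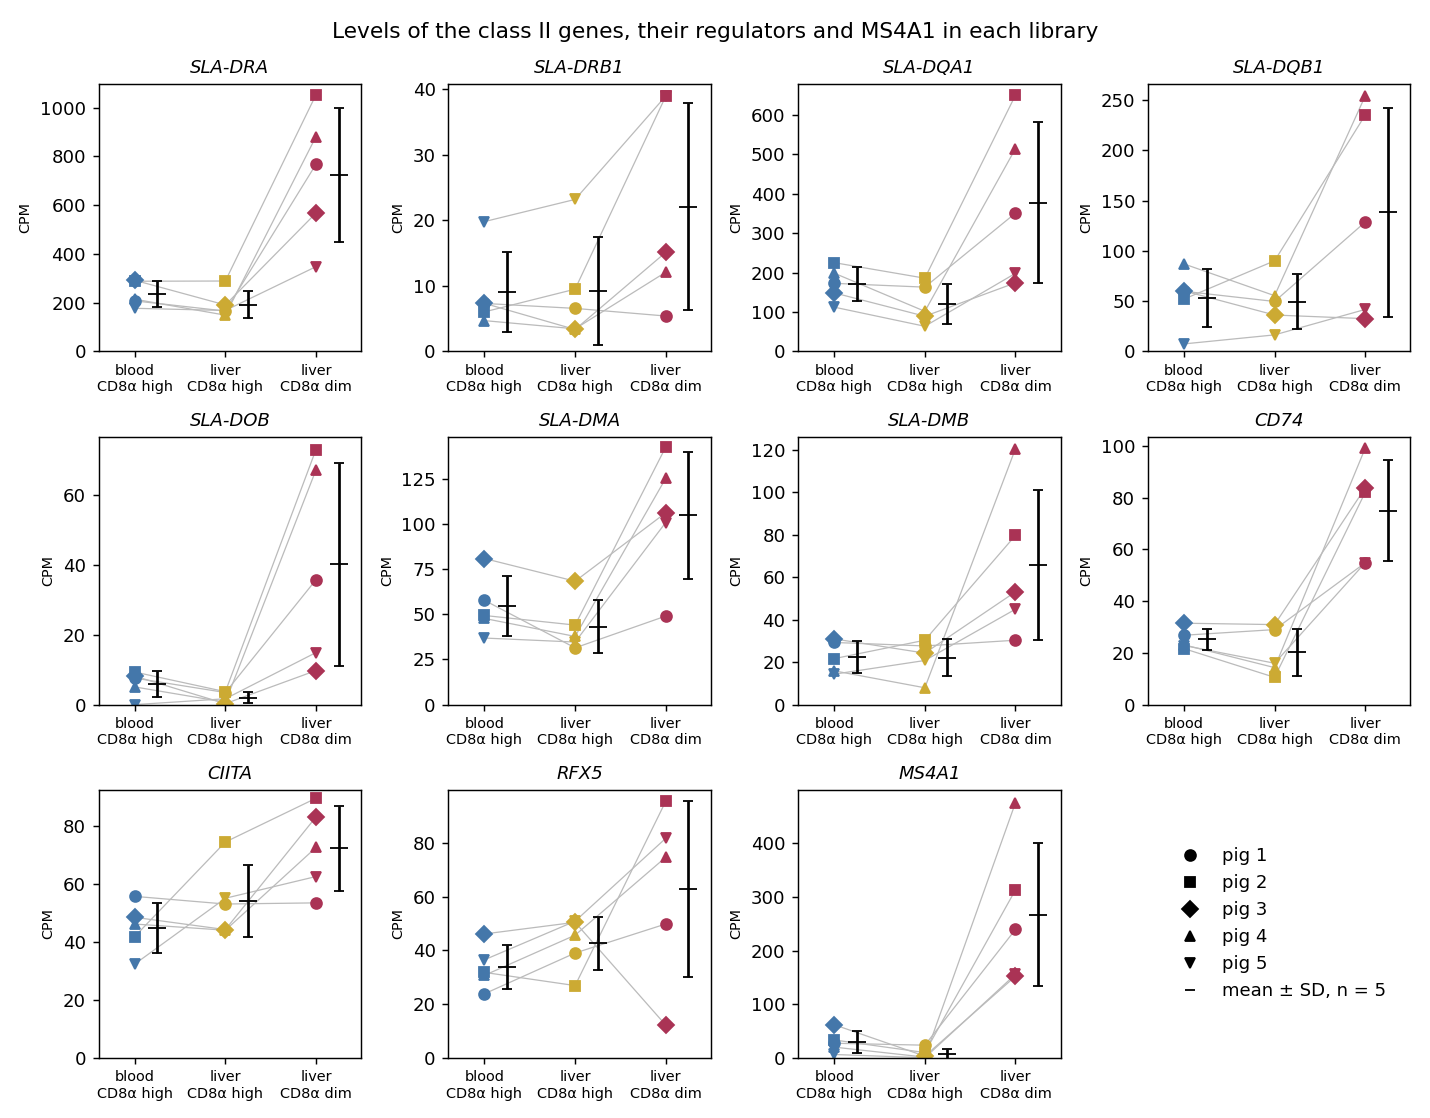
Level in CPM of each of the 10 class II genes and of the B cell marker *MS4A1* in the 15 libraries, by population. Each pig has its own symbol. The lrNK libraries lie above all others for *SLA-DRA*, *SLA-DOB*, *CD74* and *MS4A1*, and overlap the others for the remaining genes.

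*SLA-DRA*, the alpha chain of the DR molecule, gave the highest counts of the chains. Its level in pigs 1 to 5 was 208, 288, 292, 214 and 177 CPM in blood. The liver CD8α high libraries had 166, 289, 191, 149 and 168 CPM. The lrNK libraries had 768, 1053, 568, 882 and 348 CPM. The 5 lrNK libraries were above every other library, the lowest being that of pig 5. *SLA-DRA* was thus 1 of 3 class II genes, with *SLA-DOB* and *CD74*, whose lrNK libraries all lay above all blood libraries, as 6.18% of the genes tested did, and the same 3 lay above all liver CD8α high libraries, as 5.18% did. *SLA-DRA* rose by 1.91 on the log2 scale against liver CD8α high cells (standard error 0.25, adjusted p = 1.43e-05, edgeR), beside 1.62 against blood (adjusted p = 7.60e-05, edgeR).

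*SLA-DRB1*, the beta chain that pairs with it, had 7.32, 6.03, 7.33, 4.70 and 19.8 CPM in blood of pigs 1 to 5, 6.56, 9.49, 3.35, 3.45 and 23.2 CPM in liver CD8α high cells, and 5.40, 38.9, 15.1, 12.1 and 38.9 CPM in lrNK cells. Pig 5 was the highest of each population, level with pig 2 in lrNK cells, and in pig 1 the lrNK library was the lowest of the 3. The gene was not called against blood (log2 fold change 1.29, 95% interval 0.051 to 2.53, adjusted p = 0.150, edgeR) or against liver CD8α high cells (1.26, 95% interval 0.026 to 2.49, adjusted p = 0.189, edgeR). Blocking by pig gave a call in the second of these (1.36, adjusted p = 0.0431, edgeR).

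The DQ chains had lower levels than *SLA-DRA* and overlapped between populations. *SLA-DQA1*, the alpha chain, had 173, 225, 148, 198 and 112 CPM in blood of pigs 1 to 5, 163, 186, 89.2, 102 and 63.8 CPM in liver CD8α high cells, and 351, 649, 174, 514 and 198 CPM in lrNK cells. It was highest in lrNK cells within each of the 5 pigs, although the lrNK libraries of pigs 3 and 5 lay within the range of the blood libraries. The gene rose by 1.14 on the log2 scale against blood (standard error 0.33, adjusted p = 0.0187, edgeR) and by 1.65 against liver CD8α high cells (standard error 0.33, adjusted p = 0.00141, edgeR). The call against blood was lost without pig 1 (adjusted p = 0.0547), pig 2 (0.0602) or pig 4 (0.0816). *SLA-DQB1*, the beta chain of the same molecule, had 59.9, 52.1, 60.2, 87.1 and 7.51 CPM in blood, 49.7, 90.2, 36.2, 55.5 and 16.5 CPM in liver CD8α high cells, and 129, 235, 32.6, 254 and 41.8 CPM in lrNK cells. Pig 3 went the other way from the other 4 pigs, with its lowest level in lrNK cells. The gene was not called (log2 fold change 1.38, standard error 0.55, adjusted p = 0.0912 against blood and 1.48, standard error 0.55, adjusted p = 0.0814 against liver CD8α high cells, edgeR), but it was when pigs were blocked (adjusted p = 0.0123 and 0.00893, edgeR), without a filter on low counts (adjusted p = 0.0141 and 0.00893, edgeR) and against liver CD8α high cells without pig 5 (adjusted p = 0.0404, edgeR).

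The genes of the peptide-loading molecules also differed. *SLA-DOB*, the beta chain of DO, was counted 28, 34, 30, 14 and 0 times in blood of pigs 1 to 5, 10, 14, 1, 4 and 7 times in liver CD8α high cells, and 86, 152, 20, 239 and 57 times in lrNK cells. In CPM these were 0 to 9.32, 0.279 to 3.69 and 9.74 to 73.0, so the lowest lrNK library, that of pig 3, was only just above the highest blood library. The gene rose by 2.71 against blood (standard error 0.69, adjusted p = 0.00801, edgeR) and by 4.38 against liver CD8α high cells (standard error 0.77, adjusted p = 3.45e-04, edgeR), the largest fold changes among the 10 genes in both comparisons. The call against blood was lost without pig 4 (2.39, adjusted p = 0.0606, edgeR). With so few counts in the CD8α high cells, its folds are the least precise of the 10.

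*SLA-DMA*, the alpha chain of DM, had 36.8 to 80.9 CPM in blood (median 49.3), 31.4 to 68.3 CPM in liver CD8α high cells (median 37.7) and 49.0 to 143 CPM in lrNK cells (median 106). In pig 1 the lrNK level, 49.0 CPM, was below the 57.7 CPM of blood. *SLA-DMA* rose by 0.94 against blood (standard error 0.28, adjusted p = 0.0199, edgeR) and by 1.28 against liver CD8α high cells (standard error 0.28, adjusted p = 0.00262, edgeR). The first call was lost without pig 2 (adjusted p = 0.136), pig 4 (0.112) or pig 5 (0.0882). *SLA-DMB*, the beta chain of DM, had 29.3, 21.7, 30.9, 15.9 and 14.3 CPM in blood, 27.6, 30.3, 24.3, 7.93 and 20.8 CPM in liver CD8α high cells, and 30.3, 79.7, 53.1, 120.5 and 44.9 CPM in lrNK cells. In pig 1 the 3 libraries had nearly the same level. The gene rose by 1.55 against blood (standard error 0.37, adjusted p = 0.00541, edgeR) and by 1.58 against liver CD8α high cells (standard error 0.37, adjusted p = 0.00551, edgeR), and the second call was lost without pig 4 (1.01, adjusted p = 0.0518, edgeR).

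*CD74*, the invariant chain, also separated lrNK cells from the rest. It had 26.8, 21.7, 31.5, 23.1 and 22.9 CPM in blood of pigs 1 to 5, 29.0, 10.5, 30.9, 14.3 and 16.0 CPM in liver CD8α high cells, and 54.8, 82.1, 83.8, 99.1 and 54.8 CPM in lrNK cells. All 5 lrNK libraries were above the other 10. *CD74* rose by 1.57 against blood (standard error 0.29, adjusted p = 4.42e-04, edgeR) and by 1.90 against liver CD8α high cells (standard error 0.29, adjusted p = 7.68e-05, edgeR).

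Of the regulators, *CIITA*, the co-activator, had 55.8, 41.9, 48.6, 46.3 and 32.4 CPM in blood of pigs 1 to 5, 53.2, 74.6, 44.3, 44.1 and 55.2 CPM in liver CD8α high cells, and 53.6, 89.8, 83.3, 72.7 and 62.7 CPM in lrNK cells. The populations overlapped, and in pig 1 all 3 libraries had nearly the same level. *CIITA* rose by 0.68 against blood (standard error 0.21, adjusted p = 0.0282, edgeR). That call was lost without pig 2 (adjusted p = 0.129), pig 3 (0.0642), pig 4 (0.0768) or pig 5 (0.0895), and without a filter on low counts (0.0561). Against liver CD8α high cells it was not called (0.41, 95% interval -0.026 to 0.85, adjusted p = 0.232, edgeR), although it was higher in 5 of 5 pigs. *RFX5*, the DNA-binding RFX subunit, had 23.8 to 46.1 CPM in blood, 26.9 to 50.9 CPM in liver CD8α high cells and 49.8, 95.5, 12.2, 74.7 and 81.7 CPM in lrNK cells of pigs 1 to 5. The lrNK library of pig 3, with 25 counts, was the lowest of all 15 while those of pigs 2, 4 and 5 were the highest. The gene was not called against blood (0.90, 95% interval 0.16 to 1.64, adjusted p = 0.0878, edgeR) or against liver CD8α high cells (0.56, adjusted p = 0.351, edgeR). It was called in both without pig 3 (1.30, adjusted p = 0.00132 and 0.89, adjusted p = 0.0231, edgeR).

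Between the CD8α high cells of liver and blood, 0 of the 10 genes were called, where 0.064% of all genes tested, 7 genes, were called in either direction. DESeq2 also called 0 of them. Before adjustment, *SLA-DOB* alone was past 0.05 (-1.67, adjusted p = 0.947, edgeR's quasi-likelihood test). The median log2 fold change of the 10 genes was -0.20, with -0.024 over all genes. The intervals set limits on a difference: that of *SLA-DRA* ran from -0.80 to 0.22, that of *CD74* from -0.93 to 0.27 and that of *CIITA* from -0.17 to 0.71 on the log2 scale. *SLA-DQA1* and *SLA-DMA* were lower in the liver in 5 of 5 pigs (-0.51, 95% interval -1.19 to 0.18, and -0.34, 95% interval -0.91 to 0.24).

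**Figure D2:**
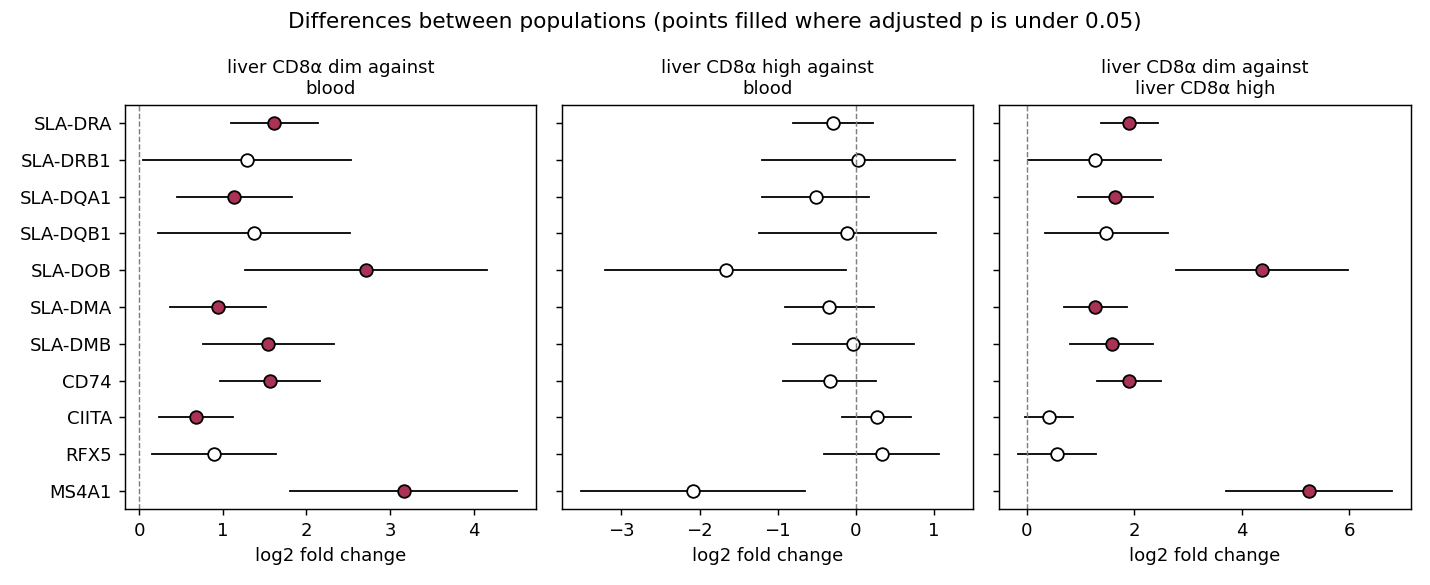
Log2 fold change with its 95% interval for the 10 class II genes and *MS4A1* in the 3 comparisons, filled where the adjusted p of edgeR's quasi-likelihood test is under 0.05. All 10 class II genes lie above 0 in both comparisons with lrNK cells, and none is filled between liver and blood CD8α high cells.

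Whether the chains follow *CIITA* or the B cell marker *MS4A1* was then asked library by library. *MS4A1*, which encodes the B cell surface protein CD20, had 27.1, 33.2, 61.6, 19.9 and 6.14 CPM in blood of pigs 1 to 5. In liver CD8α high cells it had 23.5, 9.76, 3.07, 1.21 and 0 CPM, and in lrNK cells at 239, 313, 152, 475 and 156 CPM. All lrNK libraries were thus far above the others, and *MS4A1* rose by 3.16 against blood (standard error 0.65, adjusted p = 0.00140, edgeR) and by 5.25 against liver CD8α high cells (adjusted p = 3.07e-05, edgeR). Liver CD8α high cells had less *MS4A1* than blood in 5 of 5 pigs, though not past the threshold (-2.09, adjusted p = 0.669, edgeR).

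In blood the pigs ran in the order 3, 2, 1, 4 and 5 for *MS4A1* and 3, 2, 4, 1 and 5 for *SLA-DRA*. For *CIITA* the blood order was 1, 3, 4, 2 and 5. In liver CD8α high cells it was 1, 2, 3, 4 and 5 for *MS4A1* and 2, 3, 5, 1 and 4 for *SLA-DRA*. For *CIITA* the liver CD8α high order was 2, 5, 1, 3 and 4. The liver CD8α high library of pig 5 had 0 *MS4A1* counts, a count that allows up to 3, and still had 704 *SLA-DRA* counts, and that of pig 4 had 7 *MS4A1* counts beside 864 of *SLA-DRA*. Per count of *CIITA*, *SLA-DRA* was counted 3.72 to 6.87 times in blood and 3.05 to 4.30 times in liver CD8α high cells. Per count of *MS4A1*, with 3 counts in place of the 0 of pig 5, it was counted 4.74 to 28.8 times in blood and 7.06 to 235 times in liver CD8α high cells. The ratio to *CIITA* was the narrower of the pair in both CD8α high populations. *CIITA* itself varied little, with 32.4 to 55.8 CPM in blood and 44.1 to 74.6 CPM in liver CD8α high cells. *MS4A1* ran from 6.14 to 61.6 and from 0 to 23.5 CPM. Any gene of steady level would give the narrower ratio to *CIITA*, so these widths do not show which gene *SLA-DRA* follows. *SLA-DRA* RNA was measured in libraries with hardly any *MS4A1*.

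In lrNK cells neither ratio was the narrower for every gene. Here *SLA-DRA* was counted 14.3, 11.7, 6.82, 12.1 and 5.55 times per *CIITA* count in pigs 1 to 5, and 3.21, 3.37, 3.74, 1.85 and 2.23 times per *MS4A1* count. The ratio to *CIITA* spanned 2.58-fold and that to *MS4A1* 2.02-fold. The ratio to *MS4A1* was also the narrower for *SLA-DQA1* (1.92-fold, against 3.47-fold to *CIITA*) and *SLA-DOB* (3.64-fold against 7.89-fold), and the ratio to *CIITA* for *SLA-DMA* (1.88-fold, against 3.41-fold to *MS4A1*) and *CD74* (1.56-fold against 2.64-fold). Over all 15 libraries the *SLA-DRA* ratio to *CIITA* spanned 4.70-fold. That to *MS4A1*, itself the more variable gene, spanned 127-fold, or 66.6-fold over the 14 libraries without the one at 0 *MS4A1* counts. In pig 1 the *SLA-DRA* level in lrNK cells was 3.70 times that of blood while the *CIITA* level was 0.960 times that of blood and the *MS4A1* level 8.83 times. In pig 2 these values were 3.66 for *SLA-DRA*, 2.14 for *CIITA* and 9.44 for *MS4A1*, in pig 3 they were 1.95, 1.71 and 2.47, and in pig 4 they were 4.11, 1.57 and 23.9. In pig 5 the *SLA-DRA* level was 1.96 times and the *CIITA* level 1.93 times that of blood, while the *MS4A1* level was 25.3 times. Against blood the *SLA-DRA* fold was thus near that of *CIITA* in pigs 3 and 5 and above it in pigs 1, 2 and 4. It was below that of *MS4A1* in all 5 pigs. Against liver CD8α high cells the *SLA-DRA* fold was 4.63, 3.64, 2.98, 5.92 and 2.07 in pigs 1 to 5. The *CIITA* fold there was 1.01, 1.20, 1.88, 1.65 and 1.14, below that of *SLA-DRA* in each pig. That of *MS4A1* was 10.2, 32.1, 49.6 and 394 in pigs 1 to 4, with no value in pig 5. The lrNK level of *SLA-DRA* exceeded that of liver CD8α high cells by 602, 764, 377, 733 and 180 CPM in pigs 1 to 5, while *MS4A1* exceeded it by 216, 303, 149, 474 and 156 CPM, so each added CPM of *MS4A1* came with 2.79, 2.52, 2.53, 1.54 and 1.15 added CPM of *SLA-DRA*. *CIITA* exceeded it by 0.397, 15.1, 39.0, 28.6 and 7.51 CPM.

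The order of the pigs was shared by some genes and not by others. From high to low, the lrNK libraries ran in the order of pigs 4, 2, 1, 5 and 3 for *MS4A1*. The order was the same for *SLA-DQB1*, and it was 2, 4, 1, 5 and 3 for *SLA-DOB* and *SLA-DQA1*. For *SLA-DRA* it was 2, 4, 1, 3 and 5, and for *SLA-DMB* 4, 2, 3, 5 and 1. The order for *CIITA* was 2, 3, 4, 5 and 1. As a description over 15 libraries that share pigs and populations, Pearson's r of log2 levels was 0.70 between *SLA-DRA* and *CIITA* and 0.86 between *SLA-DRA* and *MS4A1*, and after the population means were taken off it was 0.47 and 0.49. For *SLA-DQA1* the within-population r was 0.39 with *CIITA* and 0.71 with *MS4A1*, for *SLA-DQB1* it was 0.43 and 0.66, for *SLA-DOB* 0.59 and 0.64, for *SLA-DMB* 0.65 and 0.57, for *SLA-DMA* 0.48 and 0.25, for *CD74* 0.0092 and 0.34, and for *SLA-DRB1* 0.25 and -0.35. *RFX5* had -0.30 with *CIITA* and 0.00091 with *MS4A1*.

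**Figure D3:**
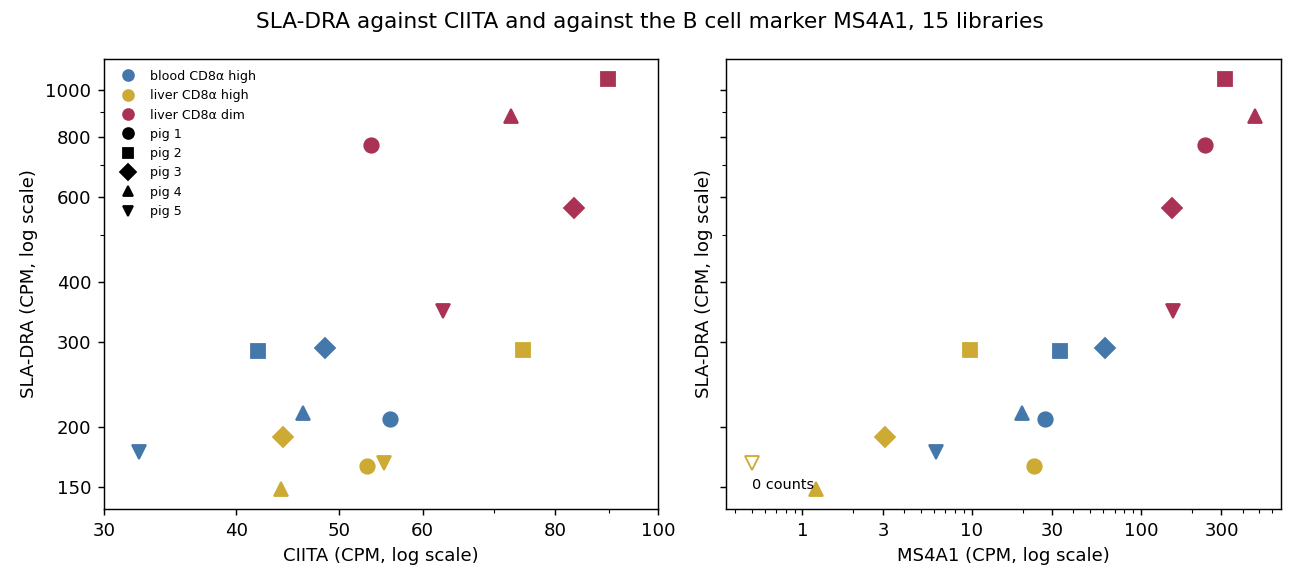
*SLA-DRA* level against *CIITA* (left) and against *MS4A1* (right) in the 15 libraries, in CPM on log axes, coloured by population with a symbol for each pig, and an open symbol for the library with 0 *MS4A1* counts. The CD8α high libraries lie at 149 to 292 CPM of *SLA-DRA* and 0 to 61.6 CPM of *MS4A1*. The lrNK libraries lie apart at 348 to 1053 CPM of *SLA-DRA*.

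With the summed B cell marker level as a covariate in the fit, 0 of the 10 genes were called in any comparison, also when pigs were blocked, and *SLA-DQA1*, *SLA-DQB1*, *SLA-DOB* and *SLA-DMB* had negative estimates in lrNK cells against blood (-1.29, -2.93, -2.29 and -0.29). The B cell sums of the lrNK libraries, at least 452 CPM, do not overlap those of the others, at most 221 CPM, so in this fit the B cell marker level and the population cannot be told apart, and only 191 of all genes were called where 1993 were called without the covariate. Whether B cells, plasma cells or cells with *XCR1* RNA were present, and had any part in the higher class II levels of the lrNK libraries, was not tested.

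The counts of the beta chains relative to the alpha chains varied among the pigs. *SLA-DRB1* had 11.2, 13.8 and 11.2 counts per 100 *SLA-DRA* counts in blood, liver CD8α high and lrNK cells of pig 5, and between 0.703 and 3.96 in the 12 libraries of the other 4 pigs. The 3 libraries of pig 5 were thus above all others in each population. *SLA-DQB1* had 6.69, 25.8 and 21.1 counts per 100 *SLA-DQA1* counts in pig 5, and 18.8 to 54.6 in the other pigs. Testing the pig term of the blocked fit, which was added after these values had been seen, *SLA-DQA1* (adjusted p = 0.0396) and *SLA-DQB1* (adjusted p = 0.0496) were among the 0.421% of genes, 46 in all, that differed between pigs (edgeR's quasi-likelihood test, Benjamini-Hochberg). *SLA-DRB1* was not (adjusted p = 0.231, edgeR), nor was *SLA-DRA* (adjusted p = 0.387, edgeR). The class II beta chains are among the most variable genes between individuals, and counts of reads that match several of them depend on a counting rule that the sources used here do not give.

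**Figure D4:**
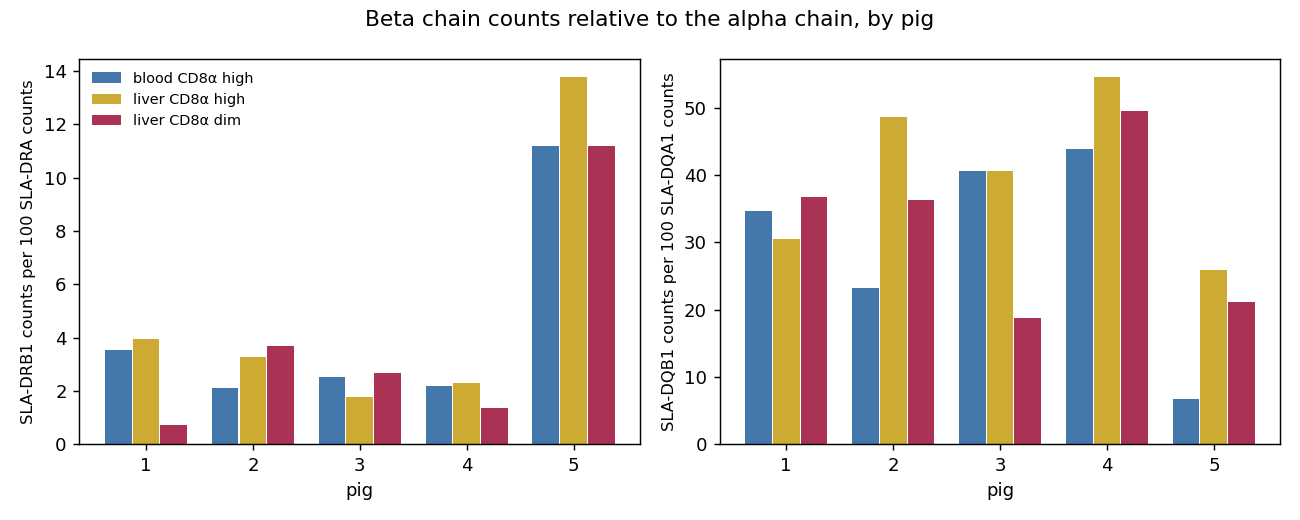
Counts of *SLA-DRB1* per 100 counts of *SLA-DRA* (left) and of *SLA-DQB1* per 100 counts of *SLA-DQA1* (right), by pig and population, each bar being 1 library. The 3 bars of pig 5 stand at 11.2 to 13.8 on the left, where no other library exceeds 3.96.

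The remaining genes of the class II pathway were followed through a list of 51, of which 44 were in the table and 34 were tested. Against blood 10 rose and 3 fell in lrNK cells, where 8.62% of all genes tested rose and 9.6% fell, and against liver CD8α high cells 11 rose and 3 fell, where 6.96% rose and 7.68% fell. Against blood 8 were called without pig 4, and against liver CD8α high cells 9 were called without pig 2, pig 4 or pig 5. Between the CD8α high populations 0 were called by edgeR. The median log2 fold change of the 34 was 0.51 against blood and 0.25 against liver CD8α high cells, with 0.0060 and 0.016 over all genes tested. The 6 listed DNA-binding partners of CIITA, the enhanceosome subunits, were not called in any comparison, among them *RFXANK* (0.69, adjusted p = 0.333, edgeR) and *RFXAP* (0.17, adjusted p = 0.609, edgeR) against blood.

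Of the 9 tested partners and repressors of CIITA, *PRDM1* and *IRF8* rose and *CREBBP* fell against blood, and only *IRF8* rose against liver CD8α high cells. *IRF8*, a transcription factor of B cells and dendritic cells, had 32.9 to 91.1 CPM in blood and 164 to 311 CPM in lrNK cells (log2 fold change 2.00, adjusted p = 2.48e-05, edgeR). All its lrNK libraries lay above all blood libraries, as 6.18% of the genes tested did. The histone acetyltransferase *CREBBP* changed by -0.48 (adjusted p = 0.0368, edgeR), and the call was lost without pig 2 (adjusted p = 0.125), pig 4 (0.178) or pig 5 (0.168), with library size only (0.0589), without a filter on low counts (0.0679) and in a fit of the 2 populations alone (0.0784). *PRDM1*, a repressor of *CIITA* in plasma cells, rose by 0.52 (adjusted p = 0.0346, edgeR), a call lost without pig 1 (adjusted p = 0.0892), pig 3 (0.100), pig 4 (0.0611) or pig 5 (0.106), without a filter (0.0635) and in a fit of the 2 populations alone (0.0775).

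In the interferon-γ arm, which induces *CIITA*, a receptor gene and a kinase gene rose against blood. The kinase *JAK1* had 1107 to 1938 CPM in blood, 1034 to 2188 CPM in liver CD8α high cells and 2068 to 5186 CPM in lrNK cells (log2 fold change 1.33, adjusted p = 2.65e-04 against blood, edgeR). The receptor *IFNGR1* rose by 1.03 (adjusted p = 0.00365, edgeR). The suppressor *SOCS1* fell against liver CD8α high cells (-1.59, adjusted p = 0.0159, edgeR), a call lost without pig 5 (adjusted p = 0.0526). Against blood it was not called (-0.76, adjusted p = 0.262, edgeR), but it was when pigs were blocked (-0.81, adjusted p = 0.0262, edgeR).

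Among the 6 tested genes of peptide processing, the proteases *CTSS*, which trims CD74 in B cells and dendritic cells, and *CTSB* rose against blood by 0.91 (adjusted p = 0.00267, edgeR) and 0.85 (adjusted p = 0.00578, edgeR), and *CTSD* fell (-0.79, adjusted p = 0.00596, edgeR), a call lost without pig 1 (adjusted p = 0.0560) or pig 4 (0.0632). Against liver CD8α high cells *CTSS*, *CTSB*, *CTSH* and the thiol reductase *IFI30* rose and *CTSD* fell. Those of *CTSB* and *CTSD* were each lost without pig 1, 2, 4 or 5, with adjusted p from 0.0510 to 0.153 and from 0.0618 to 0.102, and that of *CTSB* also in a fit of the 2 populations alone (0.0560). *CTSH* and *IFI30* rose by 3.00 (adjusted p = 0.00737, edgeR) and 1.24 (adjusted p = 0.0242, edgeR), and *CTSH* was not called without pig 2 (adjusted p = 0.0751). *IFI30* was not called without pig 2 (adjusted p = 0.133), pig 3 (0.0591) or pig 4 (0.137), and its call was lost when pigs were blocked (1.17, adjusted p = 0.0535, edgeR) and without a filter on low counts (1.23, adjusted p = 0.0535, edgeR). *SLA-DOA*, the partner chain of *SLA-DOB*, was counted 3 to 26 times per blood library, 0 to 7 times in liver CD8α high cells and 15 to 50 times in lrNK cells. It rose against liver CD8α high cells (4.60, standard error 0.99, adjusted p = 0.00228, edgeR) and was not called against blood (1.85, adjusted p = 0.142, edgeR).

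Both tested ubiquitin ligases that take class II off the cell surface rose. *MARCH1* had 1.08 to 13.6 CPM in blood, 0 to 2.64 CPM in liver CD8α high cells and 13.1 to 44.2 CPM in lrNK cells, and rose by 2.75 against blood (adjusted p = 0.00879, edgeR), which was not called without pig 2 (adjusted p = 0.0590) or pig 4 (0.0531). *MARCH8* rose by 1.25 (adjusted p = 0.00218, edgeR). The costimulatory ligands CD80 and CD86, which antigen-presenting cells need to activate T cells, went in opposite directions. *CD80* fell from 45.5 to 75.4 CPM in blood to 2.44 to 31.2 CPM in lrNK cells (-1.70, adjusted p = 0.00153, edgeR), and *CD86* rose from 37.7 to 118 CPM to 112 to 240 CPM (0.95, adjusted p = 0.0125, edgeR). The rise of *CD86* was not called without pig 1 (adjusted p = 0.0514), pig 4 (0.0963) or pig 5 (0.0643).

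**Figure D5:**
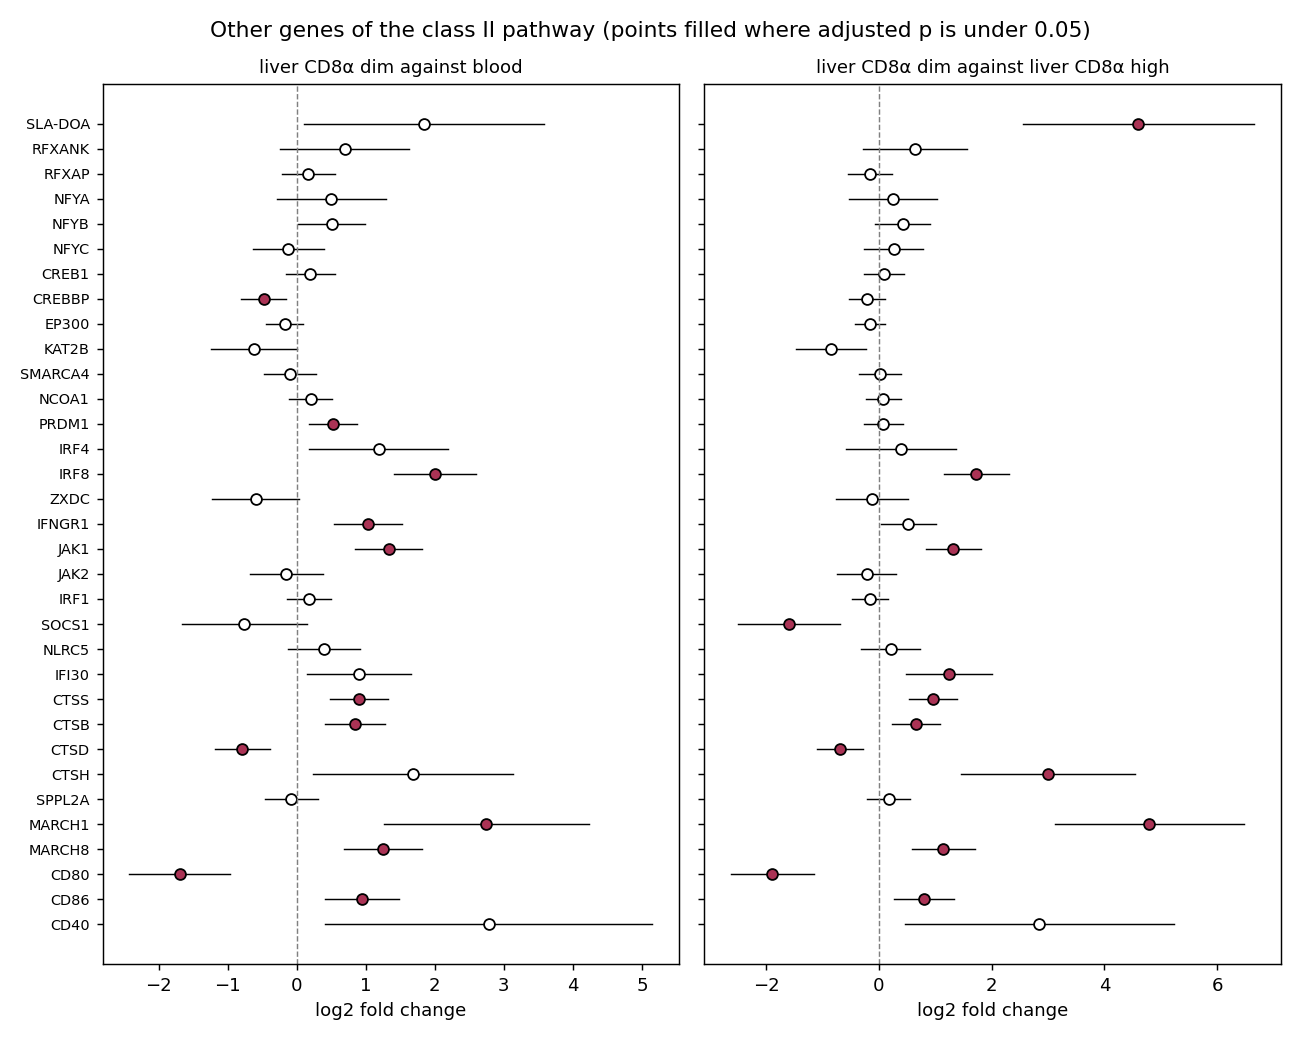
Log2 fold change with its 95% interval of other tested genes of the class II pathway in lrNK cells against blood (left) and against liver CD8α high cells (right), filled where the adjusted p of edgeR's quasi-likelihood test is under 0.05. *MARCH1*, *MARCH8*, *IRF8* and *JAK1* are filled above 0 and *CD80* below 0 in both.

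The 7 SLA genes lie together on chromosome 7 of Sscrofa11.1 between 24825037 and 25137928, *CD74* lies on chromosome 2 from 151402210 to 151409924, *CIITA* on chromosome 3 from 32171706 to 32230775 and *RFX5* on chromosome 4 from 97901955 to 97913283. Some of them overlap other genes. *CIITA* shares 1319 bases with *DEXI*, and its count was 1.04 to 1.71 times that of *DEXI* in all 15 libraries, with a correlation of 0.88 between their levels. *DEXI* was not called in lrNK cells against blood (0.63, adjusted p = 0.0884, edgeR). How reads in the shared bases were assigned is not stated, so the counts of *CIITA* and *DEXI* cannot be told apart there. *SLA-DMA* and *SLA-DMB* lie within the span of *BRD2*, which was not called either (-0.31, adjusted p = 0.246, edgeR) and had correlations of -0.23 and -0.37 with them. *MS4A1* shares 2915 bases with *MS4A4A*, which had at most 24 counts in any library.

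The genes most like *SLA-DRA* over the 15 libraries, among 8115 genes with a mean of at least 10 CPM, were *MEF2C* (Pearson's r of log2 CPM 0.91), *SP140* (0.91), *RTP4* (0.90), *STAT2* (0.90) and *MARCH1* (0.89), and *MS4A1* came 25th. For *CIITA* they were *DEXI* (0.88), *RSL1D1* (0.85), *PGPEP1* (0.83), *SZRD1* (0.82) and *STAT2* (0.81), and *MS4A1* came 643rd. These values describe 15 libraries that share 3 populations and 5 pigs, and they carry no p.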

How the data were processed

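RNA of 3 FACS-sorted NK cell populations from 5 pigs was sequenced from the 3′ end (QuantSeq). The authors trimmed the reads with QuasR, aligned them to Sscrofa11.1 with Rhisat2 (HISAT2 in the submitters' processing notes) and deposited whole-number counts per gene without normalization. Which tool counted reads, with what strand setting and what rule for multiply aligned reads, is not given in the sources used here. Populations and pigs were taken from the labels, and 0 columns matched no sample. The populations were sorted from the same pigs, so the numbers pair the libraries (mean correlation of deviations from the population means 0.107 within pigs and -0.0266 between pigs). No 2 libraries of a population looked like one library counted again (chi-square per degree of freedom 9.41 to 46.7 over 30 pairs).

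The test was edgeR 4.0.16 in R 4.3.3 (TMM, default filter by population, quasi-likelihood F test, Benjamini-Hochberg adjustment over 10939 genes, all 15 libraries in 1 fit without block). The standard error is the log2 fold change divided by the square root of F, and intervals are 95%. Correlations used log2 CPM with a prior count of 2. A count of 3 or fewer was taken as the floor, and floors and ratios cover counting error only. Library totals, from 2003499 to 5680221, limit the precision of genes with few counts. Alternatives were DESeq2 1.42.0, its size factors in edgeR, library size only, other filters, robust dispersion, the pig as a block, a fit of the 2 populations compared, the B cell marker level as a covariate (log2 of the summed CPM of 17 markers with a pseudocount of 1) and leaving out each pig. Leaving out the lrNK library of pig 3, the covariate combined with the block, and the test of the pig term were added after the data were seen. The fit was tested on simulated data. Named genes are the 10 members, *MS4A1*, pathway genes with an adjusted p under 0.05 in a comparison, *RFXANK*, *RFXAP* and the 5 genes most like *SLA-DRA* and *CIITA*. The members and the gene lists were chosen with earlier results of these data known. Gene positions were taken from a RefSeq table of Sscrofa11.1. Figures were drawn with matplotlib 3.10.9 in Python 3.11.15. Counts over the pathway list include every tested gene, but the values of some of its genes are not reported here.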

Additional observations from a re-analysis of the deposited data

Results flagged for a closer look

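*SLA-DRB1* in blood stood out in pig 5, with 19.8 CPM where the next highest blood library, that of pig 3, had 7.33 CPM. The gap to the nearest library is large against the range of the 5. Of 33 groups of 5 libraries examined in this way, for the 10 class II genes and *MS4A1* in each population, 1 stood out, and chance flags about 1 in 20.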

How the results depend on the processing

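The counts of class II genes that rose in lrNK cells, 7 against blood and 6 against liver CD8α high cells, stayed within 1.5 times under DESeq2, its size factors, library size only, other filters, robust dispersion, a fit of the 2 populations compared and the pig as a block (8 in both with the block). Without each pig in turn they were 3 to 7 and 5 to 7, those of the pathway list 8 to 13 and 9 to 14 (13 and 14 with all pigs), and those of all genes 1472 to 1951 and 1051 to 1453 (1993 and 1601). Between liver and blood CD8α high cells 0 class II genes were called throughout, while all genes called, 7, became 25 with DESeq2, 18 without a filter, 16 with the 2 populations only, 4 with robust dispersion, 0 to 8 without each pig, and 12 without the lrNK library of pig 3. Without that library 9 and 8 class II genes, 15 and 15 pathway genes and 2301 and 1764 of all genes were called in lrNK cells, against blood and against liver CD8α high cells. That library was left out after its low *RFX5* count had been seen, so the call that *RFX5* then gained supports nothing, and *CTSB* lost its call against liver CD8α high cells (adjusted p = 0.0816). Other scalings moved the median of all genes by under 0.05 on the log2 scale. Low counts of *SLA-DOB*, *SLA-DRB1* and *SLA-DOA* limit their precision.

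The summed B cell marker level as a covariate removed nearly all calls, with 0 class II genes in each comparison, 191, 2 and 31 of all genes (lrNK against blood, liver against blood CD8α high, lrNK against liver CD8α high) and 0 pathway genes in each. Some estimates against blood stayed large without a call, such as *JAK1* 1.33, *IRF8* 1.84, *CD80* -2.28 and *PRDM1* 1.03, while *CD74* was 0.81, *CIITA* 0.16 and *SLA-DRA* 0.13. With the covariate and the pig as a block, added after the data were seen, there were again 0 class II genes in each, 139, 0 and 21 of all genes, and 1, 0 and 0 pathway genes. The marker sums of lrNK cells do not overlap those of the rest, so these fits cannot tell the marker level and the population apart. Estimates that changed sign, none of them called, follow. With the covariate they were, in lrNK cells against blood, *SLA-DQA1* -1.29, *SLA-DQB1* -2.93, *SLA-DOB* -2.29, *SLA-DMB* -0.29, *MS4A1* -0.96, *SLA-DOA* -1.54, *IFI30* -0.25 and *CTSH* -0.14. Between liver and blood CD8α high cells they were *SLA-DRA* 0.36, *SLA-DRB1* -0.39, *SLA-DQA1* 0.40, *SLA-DQB1* 1.75, *SLA-DOB* 0.53, *SLA-DMB* 0.78, *RFXANK* -0.89, *IFI30* 0.12 and *CTSS* 0.11. In lrNK against liver CD8α high cells they were *SLA-DRA* -0.23, *SLA-DQA1* -1.69, *SLA-DQB1* -4.68, *SLA-DOB* -2.82, *SLA-DMB* -1.07, *CIITA* -0.35, *RFX5* -0.44, *MS4A1* -0.67 and *IFI30* -0.37.

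With covariate and block they were, in the same order of comparisons, first *SLA-DRB1* -0.28, *SLA-DQA1* -0.16, *SLA-DQB1* -0.71, *SLA-DOB* -1.59, *SLA-DMB* -0.64, *RFX5* -1.19, *MS4A1* -0.43, *SLA-DOA* -1.55 and *IFI30* -0.57. For liver against blood CD8α high cells they were *SLA-DRA* 0.10, *SLA-DQB1* 0.85, *SLA-DOB* 0.17, *SLA-DMB* 0.87, *CD74* 0.077, *RFXANK* -1.11, *JAK1* -0.16, *IFI30* 0.31 and *CTSS* 0.078. For lrNK against liver CD8α high cells they were *SLA-DRB1* -0.72, *SLA-DQA1* -0.090, *SLA-DQB1* -1.56, *SLA-DOB* -1.76, *SLA-DMB* -1.51, *CIITA* -0.012, *RFX5* -2.45, *RFXAP* 0.20, *CREBBP* 0.16, *IFI30* -0.88, *CTSD* 0.40, *MARCH8* -0.18 and *CD86* -0.23.

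The pig as a block alone turned *SLA-DRB1* to -0.17, *RFXANK* to -0.050, *JAK1* to -0.020 and *CTSS* to 3.9e-05 between liver and blood CD8α high cells, and among the named genes it changed no call other than those given with the results. Without each pig in turn, uncalled estimates between liver and blood CD8α high cells crossed 0, with ranges of -0.18 to 0.094 for *SLA-DMB*, -0.44 to 0.093 for *SLA-DQB1*, -0.15 to 0.18 for *SLA-DRB1*, -0.18 to 0.14 for *CTSS*, -0.072 to 0.093 for *JAK1*, -0.18 to 0.26 for *MARCH8* and -0.34 to 0.34 for *RFXANK*. *PRDM1* ranged from -0.054 to 0.13 in lrNK against liver CD8α high cells. The cause of these changes was not tested.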

Other observations

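The invariant chain *CD74* was counted less often than *SLA-DRA* in all 15 libraries, with 3.65 to 17.5 counts per 100 counts of *SLA-DRA*, although it is usually among the most abundant class II transcripts of antigen-presenting cells. The ratio did not separate the populations, with 7.52 to 12.9 in blood, 3.65 to 17.5 in liver CD8α high cells and 7.14 to 15.8 in lrNK cells. How completely the 3′ end of each gene is annotated was not tested.

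Rows for further class II chains held few counts. *SLA-DRB5*, listed as a pseudogene, had 0 to 26 counts per library, *SLA-DRB4*, also a pseudogene, 0 to 27, and *SLA-DQB2* 0 to 2.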
